A study of Mus musculus with 6 samples.

Results

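The collagen genes, and the genes for the proteins that modify, fold, trim and cross-link collagen, were followed on 6 expression arrays of mouse fat-derived stem cells in osteogenic medium. They were taken by gene symbol: every collagen chain, the lysyl oxidases (Lox and Loxl1 to Loxl4), the lysyl hydroxylases (Plod1 to Plod3), the prolyl hydroxylases (P4ha1 to P4ha3, P4hb and P3h1 to P3h4) and their partner Crtap. Serpinh1, a collagen chaperone, Bmp1, a protease that trims procollagen, and Pcolce and Pcolce2, which speed that trimming, completed the selection. A gene was kept when a probe had a detection p under 0.01 on at least 1 array. Of 44 such genes with a named probe 42 were kept, 22 collagens and 20 enzymes and helpers, among 8881 genes tested in all. Col5a3 and P3h2 were not detected on any array. All 42 kept genes could be tested, and 40 of them were detected on all 6 arrays, Col8a2 and Col27a1 on 5. Chains with no named probe here, such as Col6a3 and Col12a1, were not analysed here.

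The cells were mesenchymal stem cells grown out of the dorsal and inguinal fat of mice of the C57BL/6 strain. Day 0 is the undifferentiated culture, and the other arrays are cultures after 1, 3, 6, 10 and 14 days in a medium with L-ascorbic acid, β-glycerophosphate, dexamethasone (a synthetic glucocorticoid), DMSO and serum, 1 array a day. The number of mice and any pooling of animals are not stated. No later array comes from cells without the medium, so the medium and time in culture cannot be told apart. With 1 array a day a difference between days has no replicate check. The test available is limma's, of a slope of the log2 level on log2(day + 1) through the 6 arrays. Slopes are given with their SE after the ± sign and with a p adjusted over all tested genes, and that p measures scatter around a line.

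Collagen is made as procollagen chains that pair and wind into a helix inside the endoplasmic reticulum. Before that, prolyl and lysyl hydroxylases, which need ascorbic acid, modify the chains, and chaperones hold them until they fold. Outside the cell the end pieces are cut off and lysyl oxidases join the molecules by cross-links. Fibrillar collagens such as types I, III and V form the fibrils of bone and connective tissue, and type I makes up most of the protein of bone matrix. Type IV collagen forms the sheet of basement membranes, with which types XV and XVIII are associated.

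Across the 6 arrays 12891 to 13980 of 46613 probes were detected, and the median signal was 126.8 to 141.3. All 7 stromal markers with a probe (Pdgfra, Pdgfrb, Itgb1, Cd44, Thy1, Eng and Vcam1) were measured, and their summed linear level lay between 72596 and 90259 on every array. Singly they did not move alike: Pdgfra rose, Cd44, Thy1 and Eng fell, and Pdgfrb, Itgb1 and Vcam1 did not pass. All 5 adipocyte markers with a probe (Adipoq, Fabp4, Lpl, Cebpa and Pparg) rose, and their summed level was 9401, 40659, 48779 and 42393 on days 0, 6, 10 and 14. Adipoq was detected on 4 arrays and Fabp4 on 5. Both osteoblast markers with a probe, Sp7 and Alpl, fell. Their sum was 1915 on day 0, highest on day 1 at 3904, and 388.8, 138.6 and 215.0 on days 6, 10 and 14. Sp7 was detected on 5 arrays and Alpl on 4. The 4 smooth muscle and pericyte markers (Tagln, Acta2, Cspg4 and Myh11) summed to 71242, 59880, 38503 and 59309 on days 0, 6, 10 and 14, lowest on day 10. Most of each sum was Acta2, which did not pass, at log2 levels of 15.88, 15.79, 15.20 and 15.80 on those days. Tagln was the only 1 of them to fall. Of the endothelial markers, Emcn was not detected and Kdr and Tek did not pass. Cd14, the macrophage marker with a probe, rose, and its level was 66.5 on day 0, where it was not detected, and 517.9 on day 14. Of the chondrocyte markers Sox5 rose, Sox6 fell, and Sox9 and Acan did not pass. What part these shifts had in the collagen values was not tested. In bulk RNA fewer cells of a type and less RNA per cell cannot be told apart.

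Along the trend the enzymes and helpers that passed all fell, while collagens, like all tested genes, passed in both directions. Of 20 enzymes and helpers 7 fell, 0 rose and 13 did not pass, against 17.7% fallen and 18.5% risen among all tested genes. By limma, 0 of the 2 with a positive slope had an unadjusted p under 0.05. Of 22 collagens 4 rose, 3 fell and 15 did not pass, which is near those shares of all tested genes. In either direction 14 of the 42 genes were called, near the 36.2% of all tested genes. The median slope was -0.21 for the enzymes and helpers, -0.02 for the collagens and -0.00 for all tested genes. Within the collagens it was -0.34 for 7 fibrillar chains, 0.14 for 6 basement membrane chains and -0.04 for the other 9. The groups were not tested against each other. Leaving out 1 array at a time gave 2 to 7 fallen enzymes, 1 to 4 fallen collagens and 0 to 4 risen collagens. Only Loxl2, Plod2 and Col5a2 kept their call in all 6 such runs, out of 14 called genes. With the slope taken on the day itself, 1 collagen rose and 6 fell.

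**Figure D1:**
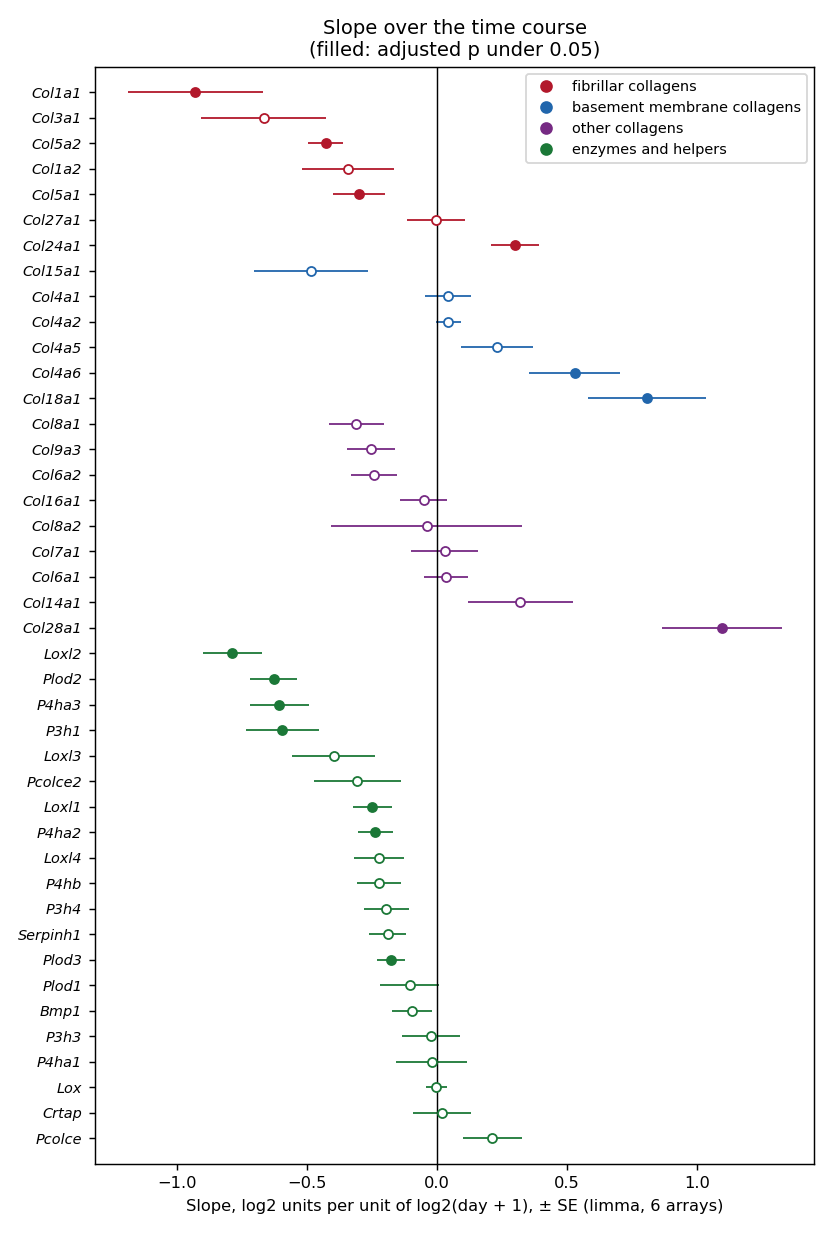
Slope of each collagen and each enzyme or helper on log2(day + 1) over the 6 arrays, in log2 units; bars are the SE of the limma fit and filled points passed at an adjusted p of 0.05. The 7 filled enzymes and helpers all lie left of 0, while filled collagens lie on both sides, from Col1a1 at -0.93 to Col28a1 at 1.10. Among all tested genes 18.5% rose and 17.7% fell.

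Most collagens were lower on day 10 than on day 6, a step singled out after the values had been seen. On day 10, 10 of 22 collagens (45.5%) were at least 2-fold lower than on day 6, when 4.28% of all genes detected on either array were. The 10 were Col1a1, Col1a2, Col3a1, Col5a1, Col4a5, Col4a6, Col15a1, Col18a1, Col14a1 and Col8a1. In all, 20 of 22 collagens were lower, with a median difference of -0.81 on the log2 scale against 0.01 for all genes. The exceptions were Col8a2 and Col9a3. The enzymes and helpers moved the same way with a median of -0.69, and 17 of 20 were lower, 4 of them (Loxl2, Loxl4, P4ha3 and Pcolce2) at least 2-fold. Without background correction, and in the authors' deposited table, 2 enzymes were at least 2-fold lower. No collagen or enzyme was at least 2-fold higher on day 10, when 1.29% of all genes were. The day 14 array held part of this difference: 6 of 22 collagens (27.3%) and 1 of 20 enzymes (P4ha3) were at least 2-fold lower on day 14 than on day 6, against 2.14% of all genes. Col8a2 was the only 1 at least 2-fold higher (0.961% of all genes). From day 10 to day 14, 17 of 22 collagens were higher, Col4a6 alone by at least 2-fold (again 0.961% of all genes), and 0 were at least 2-fold lower (0.252%). Day 10 was the lowest array for 7 collagens and 10 enzymes and the highest for 0 of them. The matching shares of all tested genes were not counted, so these numbers stand without a comparison.

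**Figure D2:**
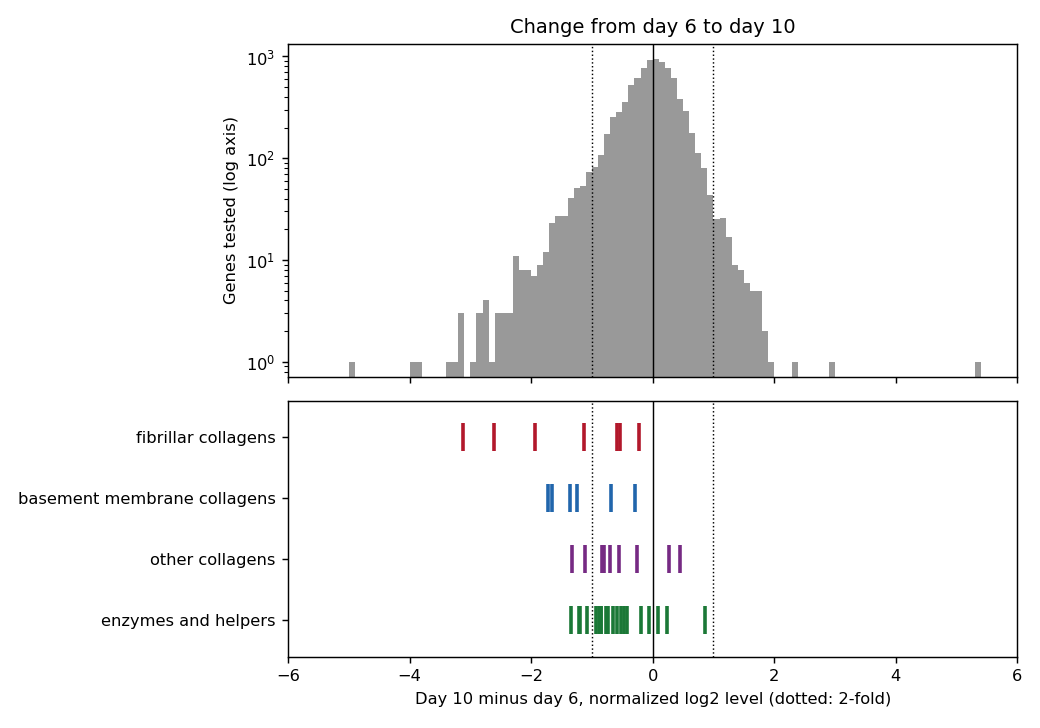
Day 10 minus day 6 in log2 units, 1 array a day: above, how many of the 8881 tested genes have each difference (log axis), and below, 1 tick for each collagen and each enzyme or helper, by class; dotted lines stand at 2-fold. Most ticks lie left of 0 while the genes as a whole centre on 0, and the leftmost tick is Col1a1, 8.66-fold lower on day 10.

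Among the collagens and enzymes the earlier steps had fewer changes of at least 2-fold than the step from day 6 to day 10. Among all genes this was not so. On day 1 against day 0, Col7a1 was the only collagen at least 2-fold higher and Pcolce2 the only enzyme or helper (3.97% of all genes), while Col28a1, Col8a2 and P4ha1 were at least 2-fold lower (3.65%). From day 1 to day 3, 6 collagens (Col3a1, Col4a6, Col15a1, Col18a1, Col14a1 and Col28a1) and Pcolce were at least 2-fold higher (8.69% of all genes), and Col7a1 and Loxl3 at least 2-fold lower (5.62%). Col27a1 was not detected on day 1 and Col8a2 not on day 3, so Col27a1 was at least 1.75-fold higher on day 3 and Col8a2 at least 1.45-fold lower. The shares of all genes use measured levels without such bounds, by which Col27a1 and Col8a2 would also count. From day 3 to day 6, Col18a1, Col28a1, Col4a6 and Col8a2 were at least 2-fold higher (6.69%), and the enzymes Loxl2, P3h1 and Plod2 at least 2-fold lower (5.98%). Over the whole course, day 14 against day 0, 4 collagens were at least 2-fold higher and 7 lower, and 0 enzymes were higher and 5 lower, when 16.1% of all genes were higher and 14.0% lower. At least 2-fold from day 0, day 3 had 4 collagens higher and 2 lower and 2 enzymes lower (7.39% and 4.41% of all genes), and day 6 had 7 collagens higher and 2 lower and 4 enzymes lower (13.5% and 11.1%). Day 10 had 3 collagens higher and 8 lower and 8 enzymes lower (16.1% and 15.1%). Comparisons that use day 0 share its array.

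**Figure D3:**
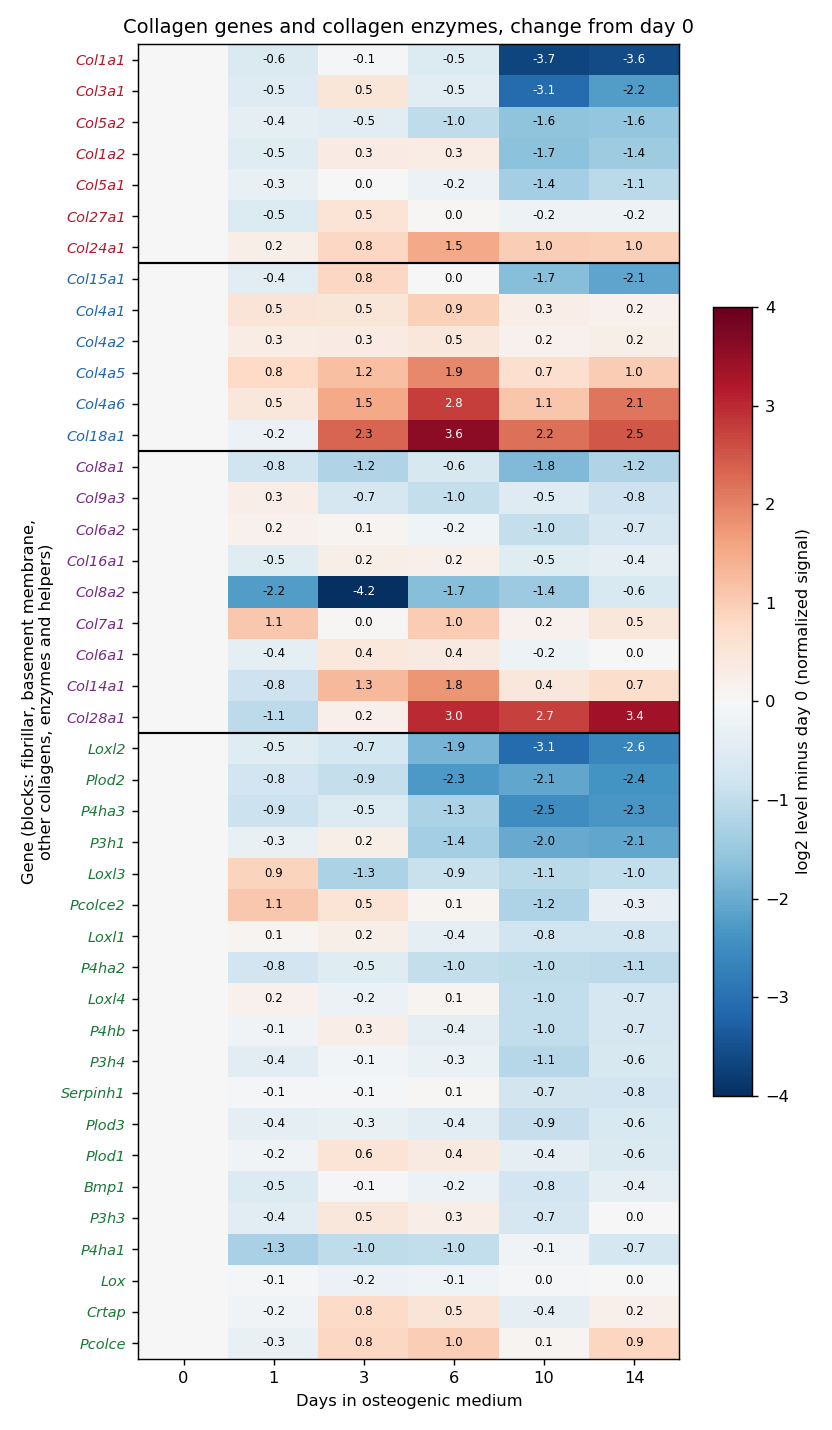
Difference of each gene from its own day 0 array, in log2 units, 1 column a day and 1 line a gene, grouped by class. Of the fibrillar chains Col1a1, Col1a2, Col3a1, Col5a1 and Col5a2 are low on days 10 and 14, and so are Loxl2, Plod2, P4ha3 and P3h1 among the enzymes. Col18a1, Col4a6 and Col28a1 stand at least 2-fold above day 0 on days 6, 10 and 14, the first 2 of them already on day 3. Several other collagens lie above day 0 on those days by less.

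The type I chains are the main fibril-forming collagens of bone. Col1a1, which codes for the α1 chain, had log2 levels of 15.74, 15.16, 15.67 and 15.19 on days 0, 1, 3 and 6, and of 12.08 and 12.15 on days 10 and 14. The levels thus form a high set up to day 6 and a low pair after it. Relative to day 0, Col1a1 was lower by 12.6-fold on day 10 and by 12.0-fold on day 14, and its slope was -0.93 ± 0.259 (limma adjusted p = 0.0305). In the authors' deposited table the sizes are 12.34-fold for day 10 and 11.73-fold for day 14. Its signal was over 50% of the highest on the array up to day 6 (58.5% to 82.6%) and 6.8% on day 10, so the size of the difference is not resolved at the upper end. The call ended without day 1, day 10 or day 14 (adjusted p up to 0.135).

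Col1a2, the α2 chain that joins with Col1a1 in type I collagen, went from 13.92, 13.43, 14.25 and 14.20 on days 0, 1, 3 and 6 to 12.26 and 12.51 on days 10 and 14. It was 3.84-fold lower on day 10 than on day 6, and its slope of -0.34 ± 0.176 did not pass (limma adjusted p = 0.165). Col3a1, the type III chain of elastic and healing connective tissue, stood at 14.29, 13.76, 14.78 and 13.83 on days 0 to 6 and at 11.22 and 12.07 on days 10 and 14. Its slope of -0.67 ± 0.240 did not pass (limma adjusted p = 0.0656), though it did on the day scale (0.0332), on the rank of the day (0.0452) and without day 3 (0.0411). A second probe of Col3a1 went from 9.98 on day 0 to 6.38 on day 10, where it was not detected, and 7.01 on day 14. In Col1a1, Col1a2 and Col3a1 the first 4 arrays do not overlap the last 2. That split was chosen after the values were seen, and how many of all tested genes show it was not counted.

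Type V collagen sits inside type I fibrils and limits their width. Col5a1 had log2 levels of 15.71, 15.40, 15.71, 15.47, 14.34 and 14.63 from day 0 to day 14. It fell at -0.30 ± 0.0983 (limma adjusted p = 0.0494), with the signal at up to 84.1% of the highest on an array, and lost the call without day 0, 1, 10 or 14 (adjusted p up to 0.167) and in 5 of 11 other settings. Col5a2, its partner chain, stood at 12.05, 11.69, 11.60, 11.04, 10.45 and 10.50. Unlike Col1a1 it was lower on each successive array up to day 10, and it fell at -0.43 ± 0.0655 (limma adjusted p = 0.00600). A second probe of Col5a2 had a slope of -0.83 and was not detected on days 10 and 14. Both type V genes were lowest on day 10.

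Col24a1 and Col27a1 code for fibrillar chains of more restricted expression. Col24a1 ran from 9.22 on day 0 and 9.45 on day 1 to 10.03, 10.73, 10.19 and 10.18 on days 3, 6, 10 and 14. It was the only fibrillar chain to rise, at 0.30 ± 0.0937 (limma adjusted p = 0.0421), and kept the call in 1 of 6 runs without an array, the run without day 6 (adjusted p up to 0.178), and in 8 of 11 other settings. Col27a1 was close to background at 7.21, 6.67, 7.75, 7.25, 7.02 and 7.01 and did not pass (limma adjusted p = 0.993).

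**Figure D4:**
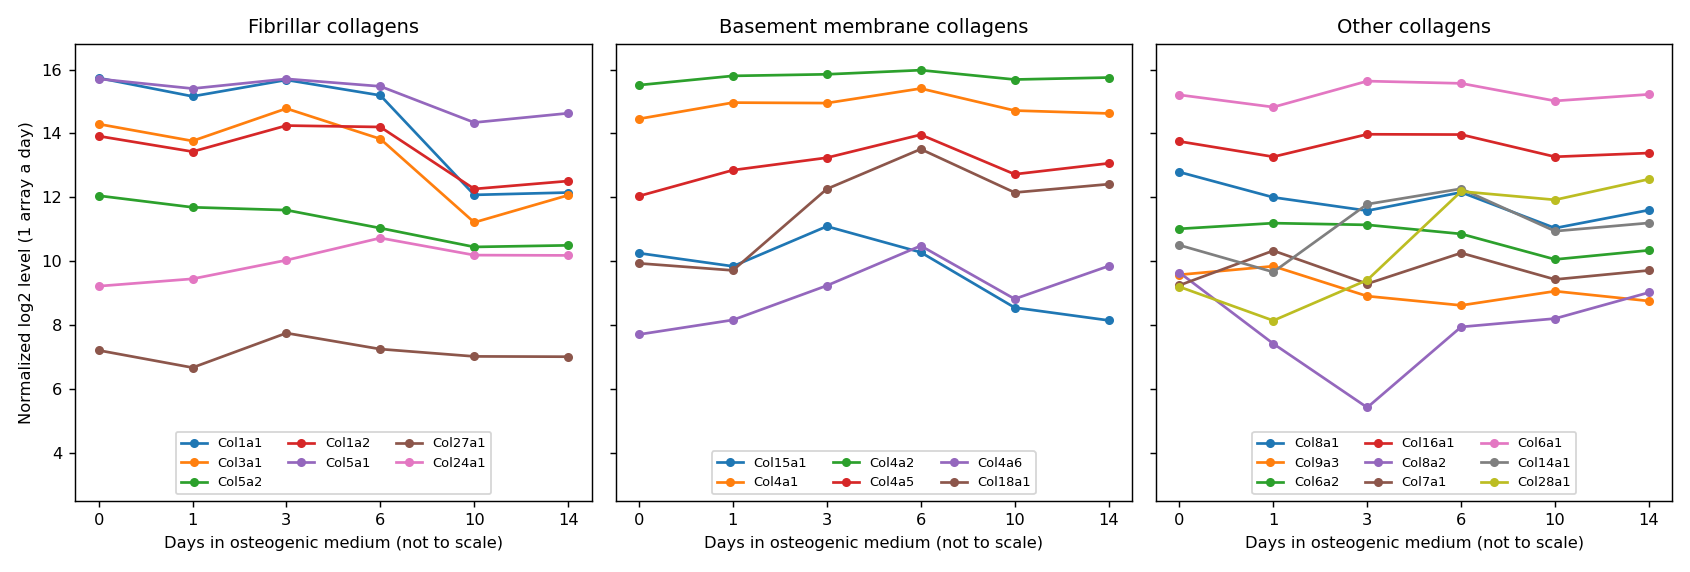
Normalized log2 level of each collagen on each of the 6 arrays, in panels for fibrillar, basement membrane and other chains; each point is 1 array and the days are not to scale. Col1a1, Col1a2 and Col3a1 are lower after day 6, the basement membrane chains Col4a5, Col4a6 and Col18a1 peak on day 6, and Col8a2 dips on day 3.

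Of the basement membrane chains 5 of 6 had their highest level on day 6. How many of all tested genes were highest on that day was not counted. Col18a1, whose product holds the endostatin fragment, was at 9.93 and 9.71 on days 0 and 1, 12.26 and 13.51 on days 3 and 6, and 12.15 and 12.41 on days 10 and 14. Relative to day 0 it was higher by 11.9-fold on day 6 and by 5.57-fold on day 14, and it rose at 0.81 ± 0.227 (limma adjusted p = 0.0314). In the authors' deposited table it was 10.89-fold higher on day 6. Its days 0 and 1 lie well below the other 4 arrays. Col4a6 was at 7.71, 8.16, 9.24, 10.48, 8.82 and 9.85, was 6.85-fold above day 0 on day 6, and rose at 0.53 ± 0.174 (limma adjusted p = 0.0498). For Col4a6 on day 6 the authors' deposited table has a smaller fold, 4.91. Without 1 array Col18a1 lost its call for day 0, 1, 10 or 14 (adjusted p up to 0.101) and Col4a6 for day 0, 1, 3 or 14 (up to 0.213). Of 11 other settings Col18a1 kept it in 8 and Col4a6 in 4.

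Col4a5, which pairs with Col4a6 in the type IV network of some basement membranes, had the same day of highest level. Its log2 levels were 12.04, 12.85, 13.24, 13.96, 12.72 and 13.06, which was 3.79-fold above day 0 on day 6, and its slope of 0.23 ± 0.138 did not pass (limma adjusted p = 0.219). Col4a1 and Col4a2, the chains of the common type IV molecule, changed little. Col4a1 lay between 14.46 and 15.41 and Col4a2 between 15.51 and 15.98, with limma adjusted p of 0.718 and 0.496. Col4a2 had 68.8% to 100% of the highest signal on every array and was itself the brightest probe on day 6, so a change in it may not have been resolved. Col15a1, a relative of Col18a1, codes for a proteoglycan core of basement membranes. It was at 10.25, 9.84, 11.09 and 10.28 on days 0 to 6 and at 8.55 and 8.15 after that, and its slope of -0.48 ± 0.220 did not pass (limma adjusted p = 0.121), though it did on the day scale (0.0353).

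The type IV genes lie in pairs on opposite strands. In RefSeq on GRCm38.p6, Col4a1 on the minus strand and Col4a2 on the plus strand of chromosome 8 start 21 bases apart, and Col4a6 and Col4a5 on chromosome X start 1343 bases apart. By these start sites the first 22 bases of the Col4a1 and Col4a2 transcripts overlap, while Col4a6 and Col4a5 run apart from a gap. The overlap of Col4a1 and Col4a2 is shown. It is the plus strand of chr8:11312805-11312826, and the capitals mark the letters of a GC box, GGGCGG, inside both transcripts.
Col4a1 to Col4a2: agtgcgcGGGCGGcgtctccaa
The Col4a1 to Col4a2 difference lay between -1.12 and -0.57 on the log2 scale on the 6 arrays, and its slope was -0.00 ± 0.0651 (exact permutation p = 1 over 720 orders of the arrays). Both signals lay near the top of the array, up to 67.9% of the highest for Col4a1 and 100% for Col4a2, so a difference between them may not have been resolved. The slopes of Col4a6 and Col4a5, 0.53 and 0.23, were not compared by a test.

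Among the other collagens Col28a1 was the only 1 to rise, and 0 fell. It codes for a chain with beaded-filament features that is best known from peripheral nerve. Its log2 levels were 9.20, 8.14 and 9.41 on days 0, 1 and 3 and then 12.18, 11.92 and 12.57 on days 6, 10 and 14. The first 3 arrays do not overlap the last 3, and the step between them was from day 3 to day 6. How many of all tested genes part in this way was not counted. Col28a1 was 10.3-fold above day 0 on day 14 (8.94-fold in the authors' deposited table) and rose at 1.10 ± 0.230 (limma adjusted p = 0.0133). It kept the call in all 11 other settings and lost it without day 14 (adjusted p = 0.0639).

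Type VIII chains form networks beneath endothelia and around vessels. Col8a1 was at 12.79, 12.00, 11.58, 12.16, 11.04 and 11.60, with a slope of -0.31 ± 0.105 that did not pass (limma adjusted p = 0.0546) and did with median scaling (0.0496), with no scaling (0.0387) and without day 6 (0.0484). Col8a2 made a trough, at 9.64, 7.42, 5.42, 7.94, 8.20 and 9.02 from the first array to the last. On day 3 it was not detected, which puts it at least 6.77-fold below day 0 on the normalized scale. A straight line could not describe this course (limma adjusted p = 0.939), and a linear and a quadratic term together passed (0.0402).

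Col14a1, which binds the fibril surface, went from 10.50 and 9.66 on days 0 and 1 to 11.79 and 12.27 on days 3 and 6 and to 10.94 and 11.20 on days 10 and 14 (limma adjusted p = 0.244). A second probe of Col14a1 was at 8.49, 8.01, 9.77, 9.44, 8.07 and 8.55. Both probes put the 2 highest arrays at days 3 and 6. Col7a1, the chain of anchoring fibrils, alternated without a trend at 9.25, 10.33, 9.29, 10.26, 9.43 and 9.71 (limma adjusted p = 0.867). Col9a3, a cartilage-type chain on fibril surfaces, was at 9.58, 9.84, 8.91, 8.62, 9.06 and 8.75 (limma adjusted p = 0.0685). The type VI chains make microfilaments around cells. Col6a2 was at 11.01, 11.19, 11.14, 10.85, 10.06 and 10.34 (limma adjusted p = 0.0666, and 0.0420 on the day scale). Col6a1 and Col16a1 each stayed within a 2-fold range, between 14.82 and 15.64 and between 13.27 and 13.97.

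The prolyl 4-hydroxylase is built of a catalytic chain, P4ha1, P4ha2 or P4ha3, and the shared chain P4hb, a disulfide isomerase. P4ha3 was at 11.37, 10.51, 10.83, 10.09, 8.89 and 9.04 and fell at -0.61 ± 0.112 (limma adjusted p = 0.00958). Its level was 5.03-fold lower on day 14 than on day 0 (4.37-fold in the authors' deposited table). Days 10 and 14 were its lowest arrays, and without day 14 the adjusted p was 0.0514. P4ha2 was at 12.89, 12.12, 12.42, 11.93, 11.88 and 11.84. It fell at -0.24 ± 0.0677 (limma adjusted p = 0.0324), with the drop of day 1 as its largest step, and lost the call without day 0, 6, 10 or 14 (adjusted p up to 0.232) and in 2 of 11 other settings.

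P4ha1 was at 11.37, 10.09, 10.36, 10.38, 11.24 and 10.68 on its brightest probe, with no trend (limma adjusted p = 0.917). A second P4ha1 probe was at 9.26, 7.92, 7.83, 7.53, 7.56 and 7.26 with a slope of -0.42, so the probes part on day 10 and the late level of P4ha1 is uncertain. P4hb was at 15.25, 15.11, 15.51, 14.86, 14.27 and 14.59 (limma adjusted p = 0.0758), with up to 74.7% of the highest signal, and passed without day 3 (0.0309). The P4ha1 to P4ha2 difference had a slope of 0.22 ± 0.144, which did not pass (exact permutation adjusted p = 0.238).

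Prolyl 3-hydroxylase 1, P3h1, works in a complex with Crtap on type I chains, and loss of either causes brittle bone disease in humans. P3h1 was at 10.09, 9.80, 10.33, 8.72, 8.07 and 8.02, high up to day 3 and low from day 6. It fell at -0.59 ± 0.141 (limma adjusted p = 0.0189) and was 4.21-fold lower on day 14 than on day 0 (3.3-fold in the authors' deposited table). P3h1 did not pass when day 10 or day 14 was left out (adjusted p up to 0.0875). Crtap was at 12.56, 12.40, 13.31, 13.08, 12.19 and 12.74 and did not pass (limma adjusted p = 0.901). The P3h1 to Crtap difference on the log2 scale went from -2.46 on day 0 to -4.73 on day 14, with a slope of -0.61 ± 0.112. P3h3 was at 11.86, 11.45, 12.32, 12.12, 11.19 and 11.89, and P3h4, a helper of lysine hydroxylation with no enzyme activity of its own known, at 12.12, 11.69, 12.01, 11.85, 10.99 and 11.47. Neither passed (limma adjusted p = 0.887 and 0.114).

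**Figure D5:**
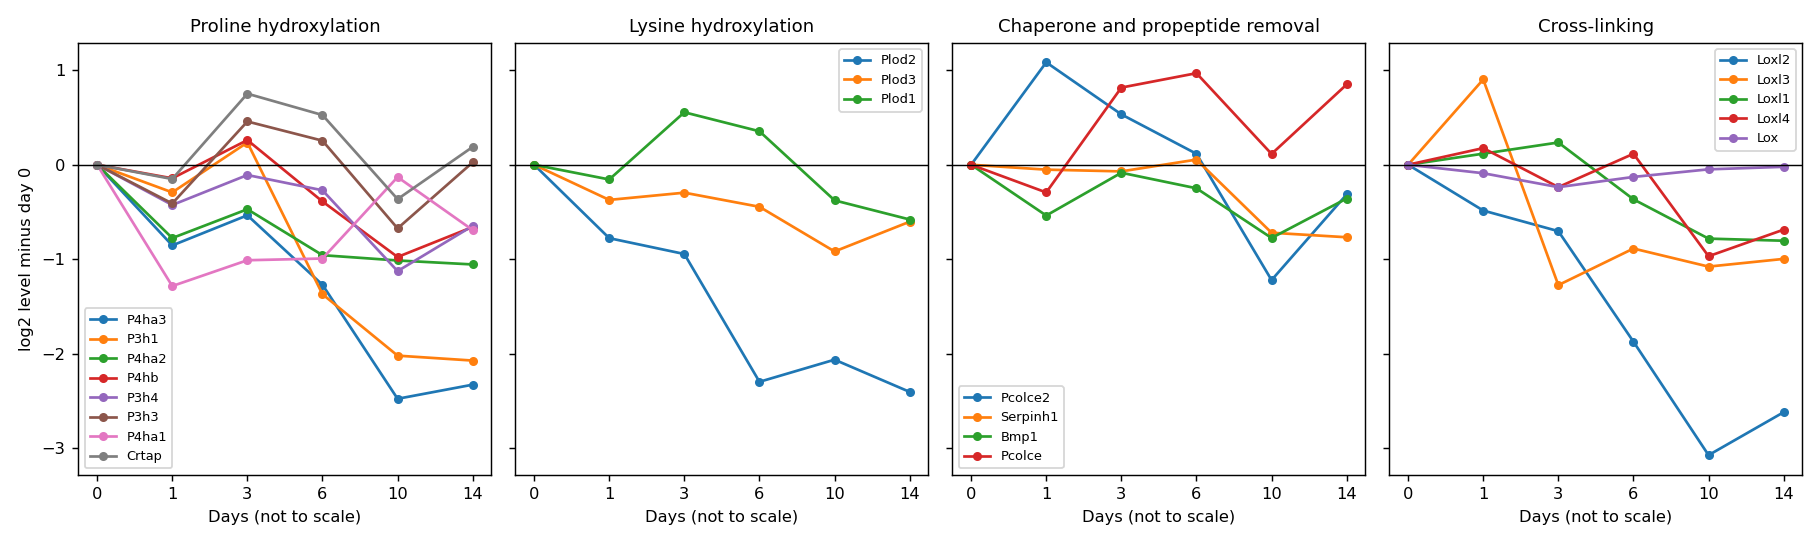
Difference of each enzyme or helper from its own day 0 array in log2 units, in panels by role; each point is 1 array and the days are not to scale. Plod2, Loxl2, P4ha3 and P3h1 end lowest, at 4.21-fold to 6.15-fold below day 0 on day 14, while Lox stays near 0 and Crtap and Pcolce end above it.

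The lysyl hydroxylases prepare the sites of cross-links, and Plod2 does so in the end regions of fibrillar collagen. Plod2 was at 10.62, 9.84, 9.67, 8.32, 8.55 and 8.21 and fell at -0.63 ± 0.0898 (limma adjusted p = 0.00549). It was already low on day 6, when Col1a1 was still high, and was 5.30-fold below day 0 on day 14 (4.19-fold in the authors' deposited table). The call held without any 1 array (adjusted p up to 0.0298). Plod3, which also adds sugars to hydroxylysine, was at 15.18, 14.80, 14.88, 14.73, 14.26 and 14.57. It fell at -0.18 ± 0.0542 (limma adjusted p = 0.0411), within a 2-fold range, and kept the call only without day 1 (adjusted p up to 0.183) and in 6 of 11 other settings. Plod1, which acts on the helix, was at 10.41, 10.25, 10.97, 10.76, 10.03 and 9.83 and did not pass (limma adjusted p = 0.484).

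Serpinh1 codes for HSP47, the chaperone that binds the folded procollagen helix. It was at 15.73, 15.68, 15.66 and 15.79 on days 0 to 6 and at 15.01 and 14.96 on days 10 and 14, with a slope of -0.19 ± 0.0710 (limma adjusted p = 0.0737). It passed on the day scale (0.0328), on the rank of the day (0.0468) and without day 6 (0.0354). Its last 2 arrays lie below the first 4, as those of Col1a1 do, a split not counted among all tested genes. Its early signal was 80.3% to 88.1% of the highest. The trimming genes did not pass. Bmp1 lay between 11.41 and 12.19 (limma adjusted p = 0.350). Another Bmp1 probe, detected on all 6 arrays, went from 11.53 on day 0 to 11.09 on day 14. A dim Bmp1 probe detected on 2 arrays went from 7.14 on day 0 to 6.09 on day 14, where it was not detected. Pcolce was at 13.53, 13.24, 14.35, 14.50, 13.65 and 14.38 (0.173). Pcolce2 was at 8.22, 9.31, 8.76, 8.34, 7.00 and 7.91 (0.188, and 0.0284 without day 0).

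The lysyl oxidases oxidise lysine outside the cell and so start cross-linking. Loxl2, which acts on type IV collagen among others, was at 12.50, 12.02, 11.80, 10.63, 9.42 and 9.88. It was lower on each array up to day 10, where it was 8.43-fold below day 0, and it fell at -0.79 ± 0.114 (limma adjusted p = 0.00557). The authors' deposited table gives it as 7.45-fold lower on day 10. The call held without any 1 array (adjusted p up to 0.0283) and in all 11 other settings. Loxl1, which is tied to elastic fibres, was at 14.76, 14.88, 15.00, 14.39, 13.98 and 13.96. It fell at -0.25 ± 0.0751 (limma adjusted p = 0.0387) and lost the call without day 1, 6, 10 or 14 (adjusted p up to 0.160) and in 4 of 11 other settings.

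Lox, the founding member of the family, stayed between 15.57 and 15.81 with a slope of -0.00 ± 0.0399 (limma adjusted p = 0.969). Its signal was 77.2% to 86.9% of the highest on all 6 arrays, so a change in Lox may not have been resolved. Loxl3 was at 8.52, 9.42, 7.24, 7.63, 7.44 and 7.52 (limma adjusted p = 0.0881). Loxl4 was at 10.10, 10.28, 9.87, 10.22, 9.13 and 9.42 (limma adjusted p = 0.106). A second probe of Loxl4 was at 10.68, 10.80, 10.50, 9.82, 8.16 and 8.61, and with the mean of its probes Loxl4 passed (0.0248). All 5 family members had a slope below 0, with that of Lox turning to 0.01 under median scaling.

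Members of the same molecule or family were also compared in pairs, by the slope of their difference on the 6 arrays. Of 12 pairs 0 passed an exact permutation test over 720 orders of the arrays, two-sided, after Benjamini-Hochberg adjustment over the 12, and 5 had an unadjusted p under 0.05. The test cannot give a p below 0.00139. The Col1a1 to Col1a2 difference went from 1.82 on day 0 to -0.36 on day 14 on the log2 scale, with a slope of -0.59 ± 0.126 (exact permutation adjusted p = 0.0611). The Lox to Loxl2 difference had a slope of 0.78 ± 0.161 and the P3h1 to Crtap difference one of -0.61 ± 0.112, each with the same exact adjusted p of 0.0611. For Plod1 against Plod2 it was 0.52 ± 0.174, for Pcolce against Pcolce2 0.52 ± 0.211, for Col6a1 against Col6a2 0.28 ± 0.0946 and for Col1a1 against Col3a1 -0.26 ± 0.114 (exact adjusted p = 0.100 each). The slopes of Lox against Loxl1 (0.25 ± 0.116), Col5a1 against Col5a2 (0.13 ± 0.0741) and Col8a1 against Col8a2 (-0.27 ± 0.431) had exact adjusted p of 0.156, 0.209 and 0.618. With the mean of all detected probes 4 pairs passed, and with the rank of the day 3 did. High signals limit the pairs that hold Col1a1, Col4a1, Col4a2, Col5a1, Col6a1, Lox or Loxl1.

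Beside the hydroxylases, procollagen needs further helpers to fold and to leave the endoplasmic reticulum. Of 14 tested genes of this kind 3 fell, against 17.7% of all tested genes (Kdelr3, a retrieval receptor of the endoplasmic reticulum, at -0.70 ± 0.161, and the COPII coat genes Sec13 at -0.34 ± 0.0708 and Sec23a at -0.28 ± 0.0745). In the same list 1 rose, Tmem38b, an ion channel of the endoplasmic reticulum needed for collagen secretion, at 0.69 ± 0.122 (18.5% of all tested genes rose), and 10 did not pass. Kdelr3 lost its call without day 10 or 14, Sec13 without day 14 and Sec23a without day 6, 10 or 14 (limma adjusted p up to 0.0774, 0.0577 and 0.0952). On day 10, 12 of the 14 were lower than on day 6, Kdelr3 and Sparc by at least 2-fold (4.28% of all genes).

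Once secreted, collagen fibrils are bound by proteins that space and link them. Of 12 tested partners 5 rose and 3 fell, against 18.5% and 17.7% of all tested genes. Risen were among others Comp, a cartilage matrix protein that binds collagen, at 0.98 ± 0.180, Dpt, the fibril-binding dermatopontin, at 0.82 ± 0.210, and Dcn, the fibril-coating decorin, at 0.69 ± 0.157. The 3 that fell were Fmod, the proteoglycan fibromodulin, at -0.81 ± 0.165, Thbs1 and Thbs2, and 4 did not pass. Fmod was not detected on days 10 and 14, so the size of its slope is uncertain. Comp, Fmod and Thbs2 lost their calls without day 14, Dpt without day 0 or 14, Dcn without day 10 or 14, and Thbs1 without day 0, 1, 10 or 14 (limma adjusted p up to 0.0537, 0.0594, 0.0790, 0.0703, 0.0625 and 0.239).

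Of 5 collagen receptors 1 fell, the uptake receptor Mrc2 at -0.32 ± 0.0593, and 4 did not pass, among them the integrin chain Itga11 at -0.32 ± 0.146. Among 11 genes of collagen turnover 3 rose and 1 fell. These counts too stand beside 18.5% risen and 17.7% fallen among all tested genes and were not tested against them. The risers were Prodh, which breaks down proline, at 1.22 ± 0.147, the metalloprotease inhibitor Timp2 at 0.36 ± 0.0914 and the lysosomal protease Ctsb at 0.16 ± 0.0527. Prodh was not detected on days 0 and 1, so the size of its slope is uncertain. Timp3, another metalloprotease inhibitor, fell at -0.66 ± 0.218, and 7 did not pass, the matrix metalloprotease gene Mmp3 at 0.54 ± 0.237 included. Mrc2 lost its call without day 14, Timp2 without day 10 or 14, and Timp3 and Ctsb without any 1 of days 0, 1, 6, 10 and 14 (limma adjusted p up to 0.0611, 0.0923, 0.468 and 0.119). Slc23a2, an ascorbate transporter, and Furin, a propeptide protease, did not pass.

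Promoter sequences of 250 bases before the start site were at hand for 31 of the 42 genes, 34 promoters in all, from RefSeq on GRCm38.p6. Col1a1, Lox, Loxl2 and Plod2 had no entry. The promoters of 4 genes with large differences are shown, chosen after the values were seen: Col1a2 (chr6:4505368-4505617, plus strand) and Col3a1 (chr1:45311288-45311537, plus), which were low after day 6, the rising Col28a1 (chr6:8192618-8192867, minus) and the falling enzyme P4ha3 (chr7:100285270-100285519, plus). Each is written 5′ to 3′ on the strand of its gene. Capitals mark CCAAT, the GC box GGGCGG, the core ACGTG and TATAAA, on either strand.
Col1a2: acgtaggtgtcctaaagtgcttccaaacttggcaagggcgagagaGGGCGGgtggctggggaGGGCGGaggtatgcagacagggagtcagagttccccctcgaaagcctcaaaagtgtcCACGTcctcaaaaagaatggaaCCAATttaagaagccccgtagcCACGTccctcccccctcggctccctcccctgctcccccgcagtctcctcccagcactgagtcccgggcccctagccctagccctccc
Col3a1: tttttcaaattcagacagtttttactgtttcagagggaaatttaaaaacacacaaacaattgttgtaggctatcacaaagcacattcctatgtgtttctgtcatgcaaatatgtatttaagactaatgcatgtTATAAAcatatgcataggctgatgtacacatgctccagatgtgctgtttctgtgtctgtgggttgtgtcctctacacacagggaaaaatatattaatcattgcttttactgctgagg
Col28a1: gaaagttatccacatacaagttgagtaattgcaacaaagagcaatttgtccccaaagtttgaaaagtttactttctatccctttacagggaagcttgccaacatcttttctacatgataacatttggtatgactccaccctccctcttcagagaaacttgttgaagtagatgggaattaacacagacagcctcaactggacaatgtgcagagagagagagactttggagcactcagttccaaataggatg
P4ha3: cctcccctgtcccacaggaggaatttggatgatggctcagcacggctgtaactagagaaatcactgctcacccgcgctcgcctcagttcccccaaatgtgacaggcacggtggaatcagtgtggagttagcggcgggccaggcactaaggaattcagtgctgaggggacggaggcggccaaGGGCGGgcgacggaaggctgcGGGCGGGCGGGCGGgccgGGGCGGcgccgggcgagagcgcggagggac
The Col1a2 promoter held 2 GC boxes, 2 ACGTG cores and 1 CCAAT, that of P4ha3 5 GC boxes, of which 2 pairs overlap, that of Col3a1 1 TATAAA, and that of Col28a1 none of the 4 motifs.

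In all, 9 motifs were searched on both strands, and the 4 in capitals were chosen from them after the counts were known. CCAAT was in 11 of the 34 promoters (32.4%), against 35.3% of 9330 promoters of tested genes and 33.8% of all 32851 in the table. GGGCGG was in 23 (67.6%, against 58.1% and 32.7%) and TATAAA in 3 (8.82%, against 6.96% and 12.4%). ACGTG was in 8 (23.5%, against 21.7% and 16.6%), 6 of them among 14 enzyme promoters (P3h1, P4ha1, P4ha2, P4hb, Plod3 and Serpinh1) and 2 among 20 collagen promoters (Col1a2 and Col5a1). Of the other 5, GCCNNNGGC was in 6 promoters (17.6%, against 20.7% and 13.7%), TGTTCT in 1 (Pcolce2; 2.94%, against 10.6% and 16.1%) and TGAGTCA in 1 (Col6a1; 2.94%, against 3.27% and 4.46%). The palindromic glucocorticoid response element and TGACGTCA were in 0 of the 34, against 0.0107% and 2.55% of tested genes' promoters and 0.00913% and 1.55% of all. These are letter matches, and binding was not measured.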

How the data were processed

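The main deposited table holds, per the file headers, a linear signal intensity and a detection p-value of every probe on each array, with no normalization between arrays. A table deposited by the authors gives a signed fold (ratio) of each later array over day 0, in which lower levels appear as the inverse ratio with a minus sign. The sources used here do not give the scanner software, any background subtraction or the scaling of that table. The signal columns carry the names C and T1 to T5, which were read in order as the days 0, 1, 3, 6, 10 and 14, and 17785 of 17785 values on each array equalled those of the series matrix within 1e-05.

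Signals of 46613 probes were background corrected with nec (limma 3.58.1, R 4.3.3, offset 16), quantile normalized on the linear scale and then taken to log2. A probe with a detection p under 0.01 was called detected. Probe symbols came from the platform annotation, in which 13805 probes have 1 symbol, and a gene was represented by its brightest probe. Where another detected probe of a gene differed in direction, or by over 1.5-fold in day 14 over day 0, it is given, apart from Col27a1, whose other probes were detected on 1 array each. Slopes on log2(day + 1) were tested with lmFit and eBayes with an intensity trend, two-sided, with 4 residual degrees of freedom, over 8881 genes at an adjusted p of 0.05. The code was tested on simulated data. Differences between single days count genes at least 2-fold apart. Every collagen and enzyme is accounted for, with each array's level where it passed or ranged over 2-fold, and pathway genes by count with up to 4 named a list by size of slope. Sec23a, Thbs1, Thbs2 and Ctsb were named beyond that rule, after their values were seen. The genes and lists were chosen with earlier results of these data known. The number of arrays and the signal over background limit the precision. Whether samples came from separate cultures is not stated. Alternatives were the scaling, background correction, offset, filter, probe rule, time scale, variance model, a quadratic term and leaving out each array.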

Additional observations from a re-analysis of the deposited data

How the results depend on the processing

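No paired analysis was possible because each day has 1 array. Counts of risen collagens went from 4 to 1 with the slope on the day, on the rank of the day or with a linear and a quadratic term together, and to between 0 and 4 without 1 array. Fallen collagens went from 3 to 6 with the slope on the day and to between 1 and 4 without 1 array, and fallen enzymes from 7 to between 2 and 7. Risen enzymes were 0 in every run. Enzymes at least 2-fold lower on day 10 than on day 6, a comparison chosen after seeing the data, went from 4 to 2 without background correction and in the authors' deposited fold table. Gene pairs with different slopes went from 0 to 4 with the mean of the detected probes and to 3 with the rank of the day. The cause was not tested for any of these.

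Slopes near 0 that did not pass changed sign: Col27a1 to 0.0211 with median scaling, 0.00391 with no scaling and 0.0542 with the mean of the probes, Lox to 0.0104 with median scaling, 0.00411 on the day and 0.00347 on the rank, and P4ha1 to 0.00620, 0.0136 and 0.000600 in the same settings. On the day scale Col4a1 went to -0.00560, Col7a1 to -0.00117, Crtap to -0.00758 and Col8a2 to 0.0647 (0.0506 on the rank). Without 1 array the slope lay between -0.0748 and 0.0355 for Col27a1, -0.10 and 0.13 for Col4a1, -0.0297 and 0.0690 for Col4a2, -0.0233 and 0.0786 for Col6a1, -0.16 and 0.13 for Col7a1, -0.35 and 0.75 for Col8a2, -0.0370 and 0.11 for Crtap, -0.0208 and 0.0383 for Lox, -0.0800 and 0.0737 for P3h3, and -0.11 and 0.29 for P4ha1.

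Median scaling moved the median day 14 minus day 0 difference of all genes from -0.00 to 0.12 and the share of risen calls from 51.2% to 59.6%. The total of calls, 1647 risen and 1570 fallen, went to 587 and 429 without day 14, to 768 and 640 without day 10, and to 970 and 858 with a quadratic term. Signal near the top of the array limits Col1a1, Col5a1, Col4a1, Col4a2, Col6a1, Lox, Loxl1, P4hb, Plod3 and Serpinh1, and background limits Col27a1 and Col8a2. Also close to background were Col4a6 on day 0 (7.71), Loxl3 from day 3 on (7.24 to 7.63) and Pcolce2 on day 10 (7.00).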
